A study of Homo sapiens with 28 samples.

Results

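The 10 genes described here encode transcription factors of the nuclear factor kappa B (NF-kB) system and direct targets of it. They are *NFKB1*, *NFKB2*, *RELA*, *RELB*, *NFKBIA*, *TNFAIP3*, *BIRC3*, *ICAM1*, *CXCL1* and *CCL20*, and they were picked as a list of names, with earlier results of these data known, so counts of members beside all genes are descriptions. All 10 were present among the 26443 genes with values in every library. Abundance was measured by polyA RNA-seq in LNCaP, an androgen-sensitive human prostate cancer cell line grown in RPMI1640 medium with fetal bovine serum, and the values are FPKM, which scale reads to gene length and to the mapped reads of the library. The 28 libraries form 12 groups in 2 series. In the knockdown series, 8 groups of 2 libraries carried the hairpin shCtrl or shHOXB13, and each of these stood without a further hairpin or was combined with shp300, shCBP or both (shp300/CBP). In the CCS1477 series, 4 groups of 3 libraries carried shCtrl or shHOXB13 and received DMSO or 250 nM CCS1477, a p300/CBP bromodomain inhibitor, for 48 hours. Each target was lowered with 1 hairpin sequence, so an effect of the target and an effect of its hairpin cannot be told apart. The comparisons ask how NF-kB genes stand after loss of the homeodomain factor HOXB13, and whether the coactivators p300 (*EP300*) and CBP (*CREBBP*) are needed for those levels.

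NF-kB factors are dimers that wait in the cytoplasm until a receptor signal frees them. In the canonical route, IkB kinase (IKK) triggers destruction of the inhibitor IkBα, encoded by *NFKBIA*, and dimers of p65 (*RELA*) and p50 (from *NFKB1*) enter the nucleus. In the noncanonical route, the kinase NIK (*MAP3K14*) drives processing of p100, the product of *NFKB2*, to p52, which acts with RelB. Many targets are themselves inhibitors of the pathway, so that *NFKBIA* and *TNFAIP3* rise when the factors are active. In prostate epithelium the pathway is best known for survival genes such as *BIRC3*, for the adhesion receptor gene *ICAM1* and for the chemokine genes *CXCL1* and *CCL20*.

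Mapped reads per library, recovered from the FPKM values, were 7458934–16338528. Of these, the part counted in genes was 64.7–74.3% in the 8 shCtrl libraries of the knockdown series and 52.7–68.8% in the 8 shHOXB13 libraries. FPKM were scaled to all mapped reads, and with them the median difference over all genes between shHOXB13 and shCtrl was −0.33 on the log2 scale in both series. *HOXB13* itself fell from 86.5 ± 1.59 to 11.3 ± 0.10 FPKM (mean ± SD, n = 2) in the knockdown series and from 142 ± 3.93 to 30.4 ± 1.95 FPKM (n = 3) under DMSO. The paper checked the knockdown of p300 and CBP by western blot, and no protein was measured here. In RNA, shp300 lowered *EP300* 1.73-fold in shHOXB13 cells and 2.36-fold in shCtrl cells (adjusted p = 0.011 and 0.0018, limma). In shCtrl cells shCBP lowered *CREBBP* 1.94-fold (adjusted p = 0.0041). There shp300/CBP lowered *EP300* 1.87-fold and *CREBBP* 1.42-fold (adjusted p = 0.0023 and 0.044). With shp300/CBP in shHOXB13 cells, neither *EP300* (5.75 to 4.32 FPKM, adjusted p = 0.073) nor *CREBBP* (4.93 to 4.10 FPKM, adjusted p = 0.23) passed the test. With shCBP in shHOXB13 cells *CREBBP* did not pass either (4.93 to 3.14 FPKM, adjusted p = 0.064). *HOXB13* also fell in shCtrl cells with shCBP, to 47.3 FPKM (adjusted p = 0.0086), and with shp300/CBP, to 49.3 FPKM (adjusted p = 0.0064), and in shHOXB13 cells with shp300/CBP, to 6.59 FPKM (1.74-fold, adjusted p = 0.0051). *EP300* was lower with shHOXB13 itself (−0.92 log2, adjusted p = 0.00067, and −0.86 under DMSO, adjusted p = 4.4e-05). *CREBBP* was lower under DMSO (−0.97 log2, adjusted p = 6.3e-06) and did not pass in the knockdown series (−0.32 log2, adjusted p = 0.12). CCS1477 raised *EP300* 1.67-fold and *CREBBP* 2.24-fold in shHOXB13 cells (adjusted p = 0.00035 and 5.8e-06). In shCtrl cells it raised *CREBBP* 1.34-fold (adjusted p = 0.0099), while *EP300* did not pass (1.21-fold, adjusted p = 0.099). In the CCS1477 series, replicate 1 of shCtrl DMSO and replicate 1 of shCtrl CCS1477 stood apart from their replicates, with chi-square values per degree of freedom of 16.6–30.4 against 1.83–7.36 for the other pairs of that series. Without these 2 libraries the members that passed were 6, 4 and 1 for shHOXB13 under DMSO, CCS1477 in shCtrl cells and the interaction, the same genes as with them. In the knockdown series the 2 shHOXB13+shp300/CBP libraries differed most, with a chi-square value per degree of freedom of 28.8. All 7 luminal prostate markers reached 1 FPKM in every group, with summed levels of 2172–2330 FPKM in shCtrl, 4130–4252 FPKM in shHOXB13 and 1123–1214 FPKM in shHOXB13+shp300/CBP libraries. With shHOXB13 in the knockdown series, 2 of the 7 were higher and 4 lower (8.45% and 30.8% of all genes). Their median log2 difference was −0.46, although the sum was higher. Under DMSO 3 were higher and 4 lower (15.2% and 42.4%). With shp300/CBP in shHOXB13 cells none was higher and 6 were lower (10.4% and 16.2%). The summed level of the 3 basal markers was 3.10–3.63 FPKM in shCtrl and 0.0835–0.11 FPKM in shHOXB13 libraries. In shCtrl 2 of the 3 were at 0, so this fall is that of 1 gene and not of a marker set. Of 8 immune markers, *CD68* alone reached 1 FPKM, with summed levels of 4.44–6.09 FPKM in shCtrl and 9.64–13.2 FPKM in shHOXB13 libraries and 14.1–41.5 FPKM in the shHOXB13+shp300/CBP libraries, while *PTPRC*, *CD3E* and *MS4A1* had no read in the shCtrl and shHOXB13 groups. The part of these differences in the results below was not tested. In bulk RNA, fewer cells of a type and less RNA per cell cannot be told apart.

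The sequences just before the start sites carry the motif that names the pathway, and they are shown here to place the measured genes. The 250 bases before each RefSeq start were searched on both strands for the 10-base NF-kB consensus. Of the 9 members with an entry, 7 held a match in any of their windows (77.8%). The same count gave 14.9% of the 11971 tested genes of the knockdown series that had an entry and 11.8% of all 27305 genes. Per window, 9.96% of all 35116 start windows held one. The members were picked as NF-kB genes, so their share is no test. *RELB* had no entry. No match was found in the windows of *RELA* and *ICAM1*. A match is a description of letters, not a bound site. Shown are the stretch before an internal start of *NFKB2* (its most upstream window held no match), the most strongly changed factor gene, and those of *NFKBIA*, *BIRC3*, *CCL20*, *NFKB1* and *CXCL1*, which differ in how they responded. Each is on the GRCh38 build, reads 5′ to 3′ on the gene's own strand, holds no exonic base except in *NFKB2*, where 30 bases around the match are given, and has matches in capitals. In *CXCL1* and *NFKB2* the capitals cover 2 matches that begin 1 base apart.

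*NFKB2* (chr10:102394461-102394490, plus strand): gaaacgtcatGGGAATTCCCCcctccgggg

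*NFKBIA* (chr14:35404750-35404999, minus strand): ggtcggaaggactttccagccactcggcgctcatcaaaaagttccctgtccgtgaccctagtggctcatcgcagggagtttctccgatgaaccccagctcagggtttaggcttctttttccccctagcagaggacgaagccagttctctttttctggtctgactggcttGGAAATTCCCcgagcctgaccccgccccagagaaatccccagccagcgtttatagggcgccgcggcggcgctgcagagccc

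*BIRC3* (chr11:102317234-102317483, plus strand): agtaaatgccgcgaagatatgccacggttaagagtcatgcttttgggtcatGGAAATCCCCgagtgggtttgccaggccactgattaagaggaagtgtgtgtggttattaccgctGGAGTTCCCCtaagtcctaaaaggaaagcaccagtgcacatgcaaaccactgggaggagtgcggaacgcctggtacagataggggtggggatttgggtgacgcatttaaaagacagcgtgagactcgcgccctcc

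*CCL20* (chr2:227813592-227813821, plus strand): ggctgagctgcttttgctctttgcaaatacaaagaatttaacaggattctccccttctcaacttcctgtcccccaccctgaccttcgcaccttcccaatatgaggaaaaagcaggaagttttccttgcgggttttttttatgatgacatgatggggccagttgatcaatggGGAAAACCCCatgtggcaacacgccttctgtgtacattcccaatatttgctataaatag

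*NFKB1* (chr4:102501109-102501329, plus strand): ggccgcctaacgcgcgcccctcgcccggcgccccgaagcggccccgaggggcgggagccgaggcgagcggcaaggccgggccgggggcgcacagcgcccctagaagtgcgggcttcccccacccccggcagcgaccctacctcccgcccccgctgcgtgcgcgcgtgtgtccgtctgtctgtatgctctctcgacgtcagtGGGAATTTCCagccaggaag

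*CXCL1* (chr4:73869143-73869392, plus strand): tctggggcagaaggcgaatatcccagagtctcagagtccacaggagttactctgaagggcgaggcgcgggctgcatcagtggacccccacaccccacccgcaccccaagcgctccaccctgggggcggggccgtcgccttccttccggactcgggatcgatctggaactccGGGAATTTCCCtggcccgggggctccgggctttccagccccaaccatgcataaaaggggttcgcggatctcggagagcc

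The match GGAAATTCCC of *NFKBIA* begins 81 bases before the start, those of *CCL20* (GGAAAACCCC) and *CXCL1* (GGGAATTTCC) 79 bases before, and that of *NFKB1* (GGGAATTTCC) 49 bases before. *BIRC3* holds matches 199 and 135 bases before its start, and *TNFAIP3* holds them 67 and 55 bases before. In *NFKB2* the matches shown begin 107 and 106 bases before the start. *NFKB1* and *CXCL1* share the same 10 letters.

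In both series shHOXB13 cells had higher RNA of the noncanonical factor genes *NFKB2* and *RELB*, of the inhibitor gene *NFKBIA* and of *BIRC3* and *CCL20*, and lower *NFKB1*, while *TNFAIP3* passed in the knockdown series alone. In the knockdown series 6 of the 10 members were higher and 1 was lower in shHOXB13 than in shCtrl cells at an adjusted p under 0.05 (limma on log2 of FPKM + 0.1), against 8.45% higher and 30.8% lower of all 17678 genes tested. Under DMSO in the CCS1477 series, 5 were higher and 1 was lower of the 9 members that passed the filter on low values, against 15.2% higher and 42.4% lower of 15907 genes. The 2 series share no library. The median log2 difference of the tested members was 0.73 in the knockdown series and 0.46 under DMSO, beside −0.33 over all genes in both, and without *ICAM1* and *CXCL1* it was 1.15 and 0.74. With a median-of-ratios scaling, which moves the all-gene median to about 0, 6 members were higher and none was lower in the knockdown series. Of all 17678 genes, 3071 were then higher and 2764 lower. Under DMSO 6 members were higher and 1 was lower with it, and of all 15907 genes 4329 were higher and 4143 lower. Among the genes called in either direction, that scaling moved the share called higher from 21.5% to 52.6% in the knockdown series and from 26.3% to 51.1% under DMSO.

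**Figure D1:**
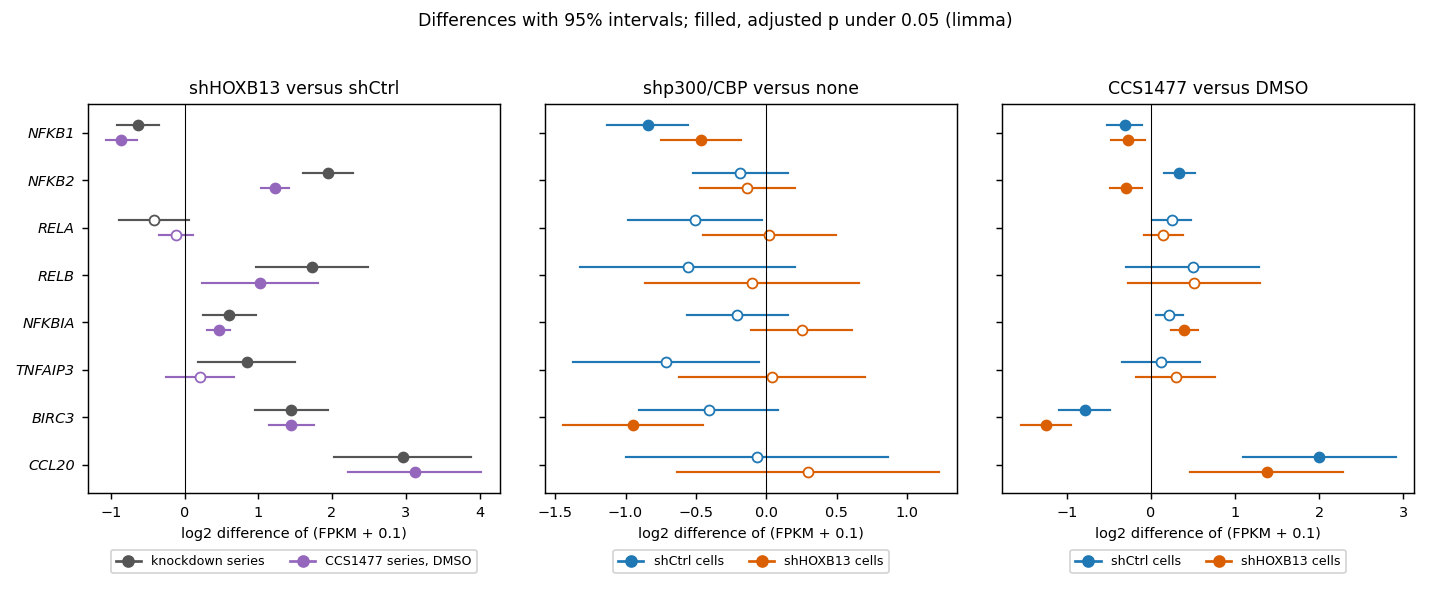
Log2 differences of FPKM + 0.1 (horizontal axis) for 8 members (rows) with 95% intervals from limma, for shHOXB13 against shCtrl (left), shp300/CBP against none (middle) and CCS1477 against DMSO (right). Filled circles passed an adjusted p of 0.05. *NFKB2* stood at 1.95 and 1.22 in the left panel, while *BIRC3* and *CCL20* lay on opposite sides of 0 in the right panel.

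*NFKB2* (chr10:102394110-102402524, 23 exons) encodes p100, the precursor of p52. Its level was 8.72 and 8.05 FPKM in the 2 shCtrl libraries and 33.1 and 32.1 FPKM in the 2 shHOXB13 libraries. Under DMSO it was 9.96, 9.77 and 8.44 FPKM in shCtrl and 20.9, 24.3 and 21.1 FPKM in shHOXB13 cells. The difference was 1.95 ± 0.15 (log2, SE; 3.86-fold; adjusted p = 3.6e-06, limma) in the knockdown series and 1.22 ± 0.09 (2.34-fold; adjusted p = 2.6e-07) under DMSO. Every shHOXB13 library lay above every shCtrl library, also in the arms with a second hairpin (26.0–33.7 against 5.79–8.72 FPKM) and with CCS1477 (17.1–24.3 against 8.44–12.3 FPKM). None of the shp300, shCBP and shp300/CBP arms changed it at the threshold. With shp300/CBP in shHOXB13 cells it was 33.0 and 26.7 FPKM, a difference of −0.14 with a 95% interval from −0.47 to 0.20 (adjusted p = 0.56).

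*NFKB2* was the member whose response to CCS1477 differed between the genotypes. In shCtrl cells it rose, from 9.39 to 11.9 FPKM on average, with all 3 CCS1477 libraries (12.3, 11.6 and 11.7 FPKM) above all 3 DMSO libraries (0.34 ± 0.09 log2, adjusted p = 0.013, limma). In shHOXB13 cells it fell, to 17.1, 17.6 and 19.0 FPKM, with no overlap with the DMSO libraries (−0.30 ± 0.09 log2, adjusted p = 0.016). The interaction was −0.64 ± 0.12 log2 (adjusted p = 0.0064). The fall in shHOXB13 cells did not pass without DMSO replicate 2 (adjusted p = 0.072) or CCS1477 replicate 1 or 2 (adjusted p = 0.064 and 0.053), and the rise in shCtrl cells did not pass without DMSO replicate 3 (adjusted p = 0.057).

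*RELB* (chr19:45001461-45038192, 12 exons) encodes RelB, the partner of p52. It was 1.02 and 1.29 FPKM in shCtrl and 3.97 and 4.11 FPKM in shHOXB13 libraries (1.73 ± 0.35 log2, 3.32-fold, adjusted p = 0.0022, limma). All 8 shHOXB13 libraries of the knockdown series (2.58–5.43 FPKM) lay above all 8 shCtrl libraries (0.433–1.29 FPKM). Under DMSO it was 1.74, 1.07 and 0.441 FPKM in shCtrl and 2.05, 2.26 and 1.82 FPKM in shHOXB13 cells, a smaller and less even separation (1.03 ± 0.36 log2, adjusted p = 0.028). The lowest of these values rests on 9 reads, and without that library, shCtrl DMSO replicate 3, the difference was 0.55 with an adjusted p of 0.097. It also failed the threshold without shHOXB13 DMSO replicate 1 (adjusted p = 0.063) or 2 (adjusted p = 0.079), and in a fit of the contrasted groups alone (adjusted p = 0.079). *RELB* did not pass with CCS1477, at 2.62, 3.25 and 3.03 FPKM in shHOXB13 cells (0.51 log2, 95% interval −0.27 to 1.3), although it did in a fit of those groups alone (adjusted p = 0.018). In shCtrl cells with shCBP it was 0.433 and 0.493 FPKM, just short of the threshold (−1.15 log2, adjusted p = 0.051).

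**Figure D2:**
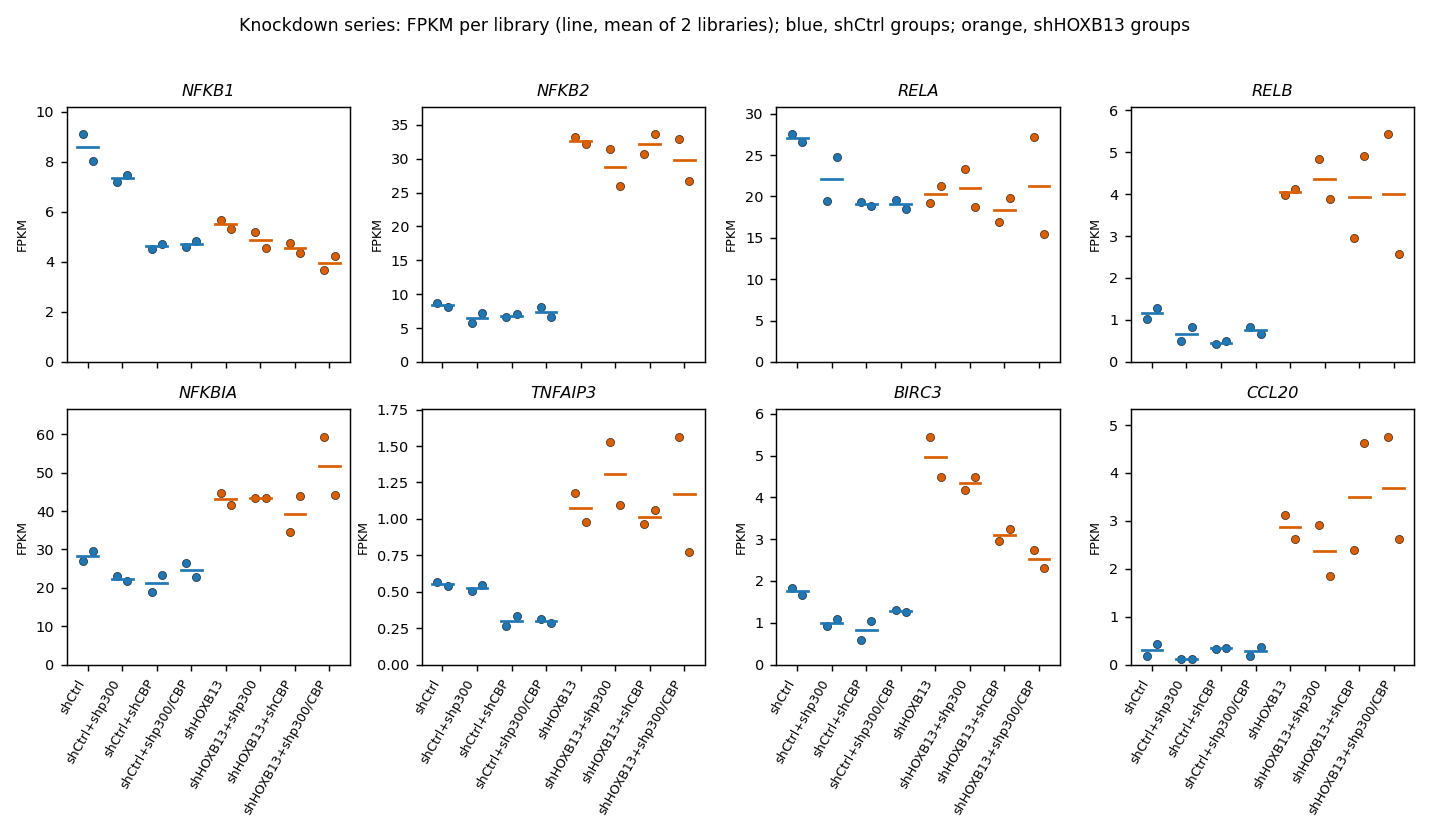
FPKM (vertical axes, starting at 0) of 8 members in the 16 libraries of the knockdown series, with 1 point per library and a line at the mean of 2 libraries. *NFKB2* ran from 26.0 to 33.7 FPKM in the shHOXB13 groups (orange) and from 5.79 to 8.72 FPKM in the shCtrl groups (blue).

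The canonical factor genes went the other way or did not pass. *NFKB1* (chr4:102501330-102617302, 24 exons), which encodes p105 and its product p50, was 9.11 and 8.04 FPKM in shCtrl and 5.67 and 5.32 FPKM in shHOXB13 libraries (−0.63 ± 0.13 log2, adjusted p = 0.0027, limma). Under DMSO it was 9.36, 11.7 and 11.3 FPKM in shCtrl and 5.97, 5.75 and 5.94 FPKM in shHOXB13 cells (−0.86 ± 0.09 log2, adjusted p = 1.1e-05). The libraries did not overlap in either comparison. With median-of-ratios scaling the knockdown-series difference was −0.23 (adjusted p = 0.23), and the difference under DMSO was −0.52 (adjusted p = 0.00043).

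*NFKB1* was also the member that most often passed when p300 and CBP were targeted. In shCtrl cells it was 4.51 and 4.72 FPKM with shCBP (−0.88 log2, adjusted p = 0.0028, limma) and 4.61 and 4.84 FPKM with shp300/CBP (−0.84 log2, adjusted p = 0.0013), below the levels in shHOXB13 cells alone. With shp300 it was 7.21 and 7.47 FPKM, and the 95% interval of the difference, −0.51 to 0.07 log2, spans 0. In shHOXB13 cells it was 3.67 and 4.25 FPKM with shp300/CBP (−0.47 log2, adjusted p = 0.021), a call lost without shHOXB13 replicate 1 (adjusted p = 0.12), shHOXB13 replicate 2 (0.064) or shp300/CBP replicate 1 (0.10). CCS1477 lowered it to 7.99, 9.03 and 8.85 FPKM in shCtrl cells (−0.32 log2, adjusted p = 0.029) and to 4.68, 4.94 and 4.95 FPKM in shHOXB13 cells (−0.27 log2, adjusted p = 0.037). Both falls are small. The second failed the threshold without any 1 of its 6 libraries (adjusted p = 0.065–0.11), and the first without CCS1477 replicate 1 or DMSO replicate 2 or 3 (adjusted p = 0.079–0.11).

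*RELA* (chr11:65653599-65663090, minus strand, 11 exons) encodes p65, and at 15.5–37.1 FPKM it was among the most abundant members in every group. It was 27.6 and 26.6 FPKM in shCtrl and 19.2 and 21.3 FPKM in shHOXB13 libraries, which did not overlap but did not pass (−0.42 log2, 95% interval −0.89 to 0.05, adjusted p = 0.15, limma). Under DMSO the libraries overlapped, with 30.5, 29.7 and 26.2 FPKM in shCtrl and 29.7, 26.3 and 23.7 FPKM in shHOXB13 cells (−0.12 log2, interval −0.35 to 0.12). With median-of-ratios scaling the sign under DMSO changed, to 0.22 (adjusted p = 0.074), as did that for CCS1477 in shHOXB13 cells, from 0.15 to −0.06 (adjusted p = 0.68). No comparison brought *RELA* past the threshold in the fit of all groups without a replicate block. With the block it passed for CCS1477 in shCtrl cells (0.25 log2, adjusted p = 0.011, limma). In a fit of the contrasted groups alone *RELA* passed for shHOXB13 in the knockdown series (adjusted p = 0.036) and for shp300/CBP in shCtrl cells (−0.51 log2, adjusted p = 0.04). The 2 shHOXB13+shp300/CBP libraries, at 27.1 and 15.5 FPKM, were the widest apart, and without the lower one the interaction term for shHOXB13 with shp300/CBP reached 0.93 (adjusted p = 0.021).

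Both inhibitor genes were measured, at very different levels. *NFKBIA* (chr14:35401079-35404749, minus strand, 6 exons) encodes IkBα, which holds NF-kB dimers in the cytoplasm. It was 27.0 and 29.6 FPKM in shCtrl and 44.7 and 41.6 FPKM in shHOXB13 libraries (0.61 ± 0.16 log2, 1.52-fold, adjusted p = 0.012, limma). Under DMSO it was 25.2, 25.6 and 28.0 FPKM in shCtrl and 37.1, 36.4 and 34.8 FPKM in shHOXB13 cells (0.46 ± 0.07 log2, adjusted p = 0.00022). As with *NFKB2*, all shHOXB13 libraries lay above all shCtrl libraries in both series. The knockdown-series call was lost without shCtrl replicate 1 (adjusted p = 0.083) or shHOXB13 replicate 1 (adjusted p = 0.071), with differences of 0.54 and 0.56 log2.

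CCS1477 brought *NFKBIA* in shHOXB13 cells to 46.5, 46.5 and 49.8 FPKM, above every other group of that series (0.40 ± 0.07 log2 over DMSO, adjusted p = 0.0013, limma). The all-gene median of this comparison was 0.20, and with scaling the difference was 0.19 (adjusted p = 0.062). In shCtrl cells it was 31.2, 32.8 and 27.7 FPKM, overlapping DMSO (0.22 log2, adjusted p = 0.051). None of the p300 and CBP knockdown arms passed. The widest spread was with shp300/CBP in shHOXB13 cells, 59.4 and 44.2 FPKM (0.25 log2, 95% interval −0.11 to 0.61).

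*TNFAIP3* (chr6:137867214-137883314, 9 exons) encodes A20, a ubiquitin-editing enzyme that shuts off receptor signals to IKK. It was low throughout, from 0.264 to 1.57 FPKM. It was 0.566 and 0.543 FPKM in shCtrl, from 37 and 35 reads, and 1.18 and 0.976 FPKM in shHOXB13 libraries, from 70 and 44 reads (0.84 ± 0.30 log2, adjusted p = 0.044, limma). This call is a narrow one, and without any 1 of the 4 libraries the adjusted p was 0.088–0.19, and without the filter on low values it was 0.066. All 8 shHOXB13 libraries of that series (0.774–1.57 FPKM) were nevertheless above all 8 shCtrl libraries (0.264–0.566 FPKM). Under DMSO the groups overlapped, with 0.705, 0.792 and 1.13 FPKM in shCtrl and 1.2, 1.05 and 0.820 FPKM in shHOXB13 cells (0.21 log2, 95% interval −0.25 to 0.68), and with median-of-ratios scaling the difference was 0.52 (adjusted p = 0.045). The difference between the 2 series was not tested.

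*BIRC3* (chr11:102317484-102339403, 9 exons) encodes cIAP2, an inhibitor of cell death that also acts as a ubiquitin ligase in tumor necrosis factor signaling. It was 1.83 and 1.67 FPKM in shCtrl and 5.46 and 4.48 FPKM in shHOXB13 libraries (1.45 ± 0.23 log2, 2.73-fold, adjusted p = 0.00043, limma). Under DMSO it was 1.79, 1.96 and 2.03 FPKM in shCtrl and 5.60, 5.42 and 5.29 FPKM in shHOXB13 cells (1.45 ± 0.14 log2, 2.73-fold, adjusted p = 3.3e-06). The libraries did not overlap in either series, and the 2 series share no library.

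*BIRC3* was also the member that fell most with the p300/CBP inhibitor. In shHOXB13 cells CCS1477 lowered it to 2.13, 2.06 and 2.52 FPKM (−1.25 ± 0.14 log2, 2.38-fold, adjusted p = 3.5e-05, limma), close to but above the 3 shCtrl DMSO libraries (1.79–2.03 FPKM). In shCtrl cells it fell to 0.889, 1.13 and 1.22 FPKM (−0.79 ± 0.14 log2, adjusted p = 0.0016). The interaction, −0.46 log2, had a 95% interval from −0.89 to −0.03 but did not pass adjustment (adjusted p = 0.14), and it did with a pseudocount of 1 (0.026) or without shCtrl CCS1477 replicate 1 (0.049), one of the libraries that stood apart. Treated shHOXB13 libraries remained above treated shCtrl libraries without overlap. With shp300/CBP in shHOXB13 cells it was 2.74 and 2.32 FPKM (−0.95 ± 0.23 log2, adjusted p = 0.0098), a call lost without shHOXB13 replicate 1 (−0.81 log2, adjusted p = 0.087). With shp300 it was 4.18 and 4.49 FPKM, and with shCBP 2.97 and 3.25 FPKM, neither of which passed (95% intervals −0.68 to 0.31 and −1.15 to −0.16 log2). In shCtrl cells it fell with shCBP, to 0.595 and 1.04 FPKM (−1.06 log2, adjusted p = 0.013), a call lost without shCtrl replicate 1 (adjusted p = 0.10) or shCBP replicate 1 (adjusted p = 0.12).

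**Figure D3:**
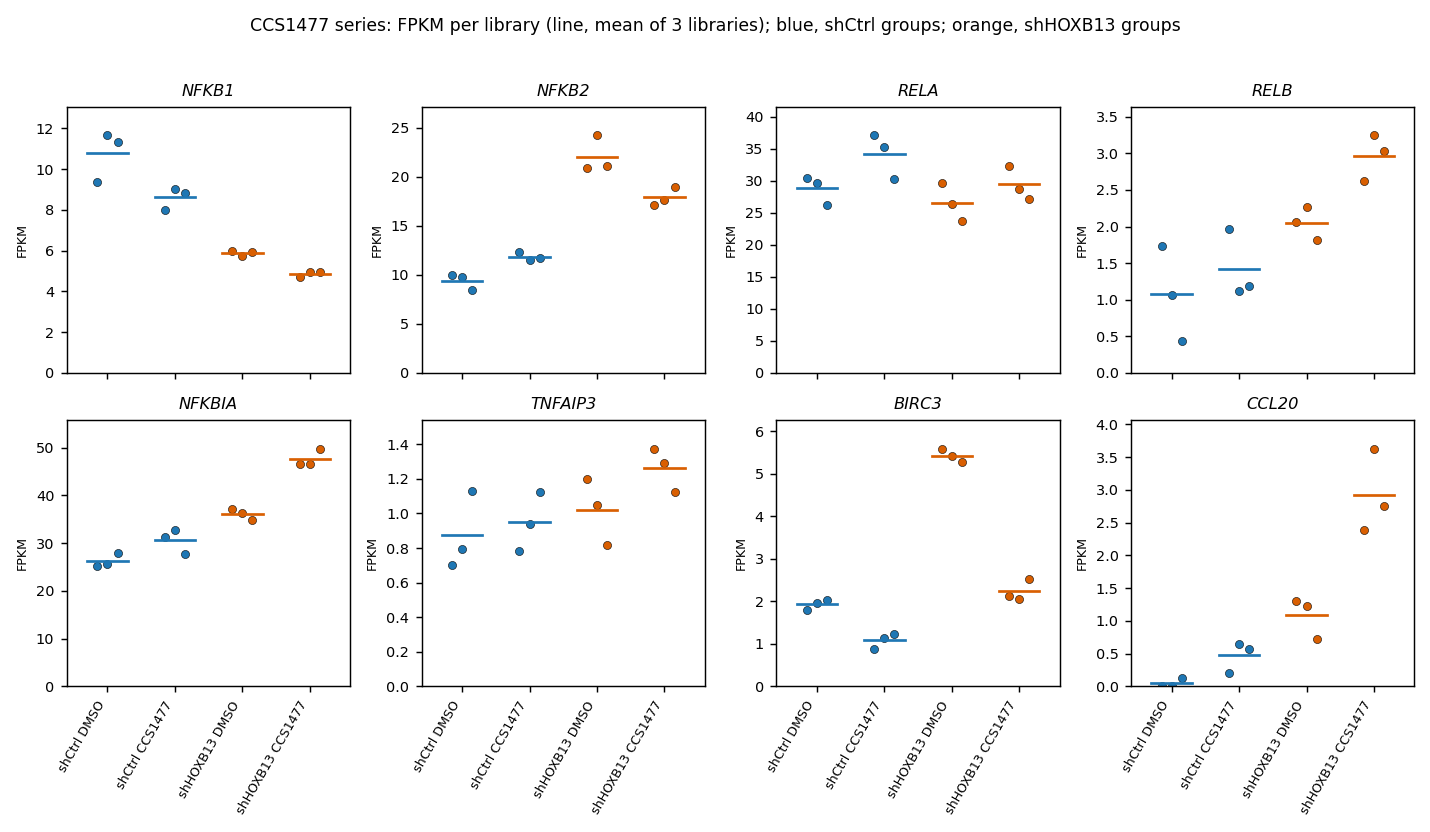
FPKM (vertical axes, starting at 0) of 8 members in the 12 libraries of the CCS1477 series, with 1 point per library and a line at the mean of 3 libraries. In shHOXB13 cells *BIRC3* was 5.29–5.60 FPKM with DMSO and 2.06–2.52 FPKM with CCS1477, while *CCL20* was 0.718–1.31 and 2.39–3.63 FPKM.

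*CCL20* (chr2:227805739-227817564, 4 exons) encodes a chemokine that attracts cells bearing CCR6. It was near the limit of detection in shCtrl cells and clearly detected in shHOXB13 cells. The 2 shCtrl libraries held 2 and 5 reads (0.172 and 0.436 FPKM) and the 2 shHOXB13 libraries 33 and 21 reads (3.13 and 2.62 FPKM), a difference of 2.96 ± 0.43 log2 (adjusted p = 0.00025, limma). Per mapped read the ratio of the summed counts was 9.6, with an exact 95% interval of 4.36–25 that covers counting error only. Under DMSO the shCtrl libraries held 0, 0 and 1 read and the shHOXB13 libraries 12, 11 and 7 reads (adjusted p = 5.1e-05), a ratio of 23.6 with an interval of 3.93–964.

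*CCL20* was higher with CCS1477 in both genotypes. In shHOXB13 cells the reads went from 12, 11 and 7 with DMSO to 29, 43 and 27 (1.31, 1.22 and 0.718 FPKM to 2.39, 3.63 and 2.76 FPKM), a rise of 1.38 ± 0.41 log2 (adjusted p = 0.02, limma) and a count ratio of 2.73 (1.8–4.25). Without DMSO replicate 3 or CCS1477 replicate 2 the adjusted p was 0.083 or 0.076. In shCtrl cells the reads were 2, 6 and 6 with CCS1477 against 0, 0 and 1 (adjusted p = 0.0044), a ratio of 10.3 with an interval of 1.57–436. With shp300/CBP in shHOXB13 cells *CCL20* held 47 and 18 reads (4.76 and 2.61 FPKM), a difference of 0.29 log2 with a 95% interval from −0.64 to 1.22. *BIRC3* and *CCL20*, both higher in shHOXB13 cells, moved in opposite directions with the inhibitor.

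*ICAM1* (chr19:10271093-10286615, 7 exons), the gene of a leukocyte adhesion receptor, and *CXCL1* (chr4:73869393-73871308, 4 exons), that of a neutrophil chemokine, were near or under the limit of detection. *ICAM1* had 0 to 11 reads per library, with more than 3 reads in 8 of 28 libraries, with 1 and 2 in shCtrl, 1 and 4 in shHOXB13, and 11 and 1 in the shHOXB13+shp300/CBP libraries. *CXCL1* had no read in 21 of the 28 libraries and at most 4 reads in any. The 2 shHOXB13+shp300/CBP libraries held 4 and 2 *CXCL1* reads and the 2 shHOXB13 libraries 1 and 0. That difference passed the limma test (adjusted p = 0.047), but the count ratio of 6.64 has an exact interval of 0.806–306, and the call was lost with the recovered reads (adjusted p = 0.057) and without any 1 of the 4 libraries. *CXCL1* reached the filter of 0.1 FPKM in 3 libraries of that series, both of shHOXB13+shp300/CBP and 1 of shHOXB13+shp300. It thus entered the test only through arms where it was high, and the call is a description only. A count of 0 allows a level of up to 3 reads, so no fitted fold is given for these 2 genes. *ICAM1* passed the test in none of the 13 comparisons as reported.

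**Figure D4:**
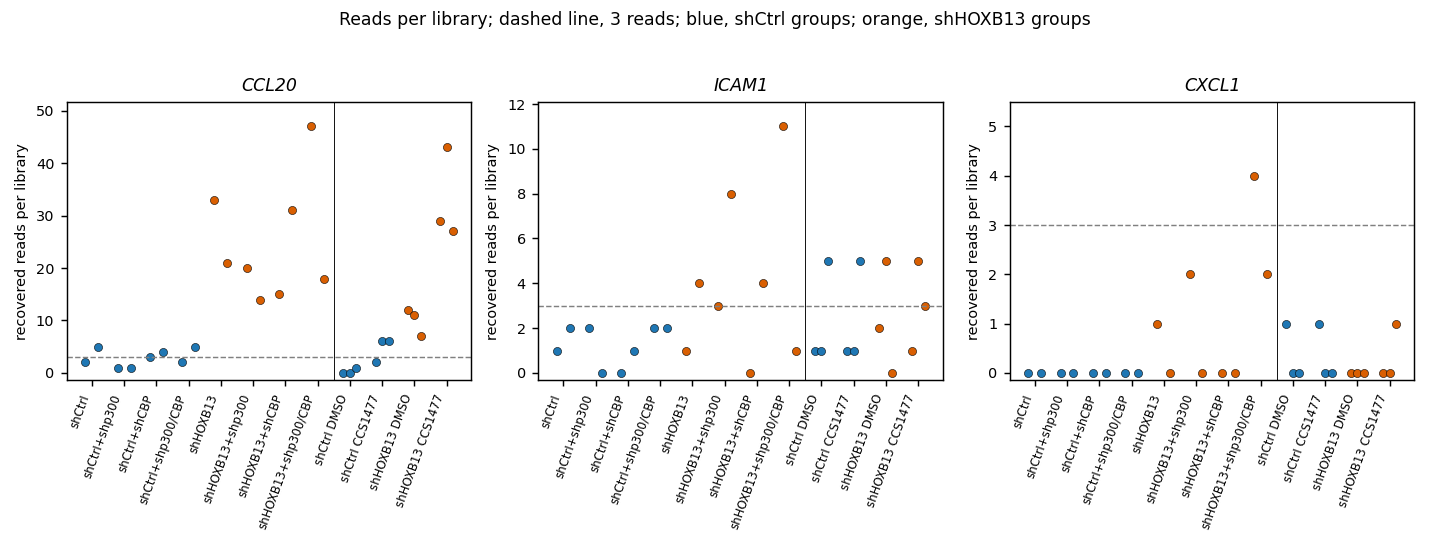
Recovered reads per library (vertical axes) for *CCL20*, *ICAM1* and *CXCL1* in all 12 groups, with 1 point per library, a dashed line at 3 reads and a vertical line between the 2 series. *CCL20* held 7 to 47 reads in the shHOXB13 libraries and 0 to 6 in the shCtrl libraries, while *CXCL1* exceeded 3 reads in 1 library.

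Counted over all arms, 6 members of the knockdown series (*NFKB2*, *RELB*, *NFKBIA*, *TNFAIP3*, *BIRC3* and *CCL20*) had every shHOXB13 library above every shCtrl library. This held for 3.40% of the 17678 genes tested, and the opposite, every shHOXB13 library below, held for 17.8% and for no member. In the CCS1477 series 4 members (*NFKB2*, *NFKBIA*, *BIRC3* and *CCL20*) were separated upwards, against 6.03% of 15907 genes, and *NFKB1* downwards (4.68–5.97 against 7.99–11.7 FPKM), against 22.7%. The arms of a series are not replicates of each other, so these counts describe the libraries only.

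With the hairpins against p300 and CBP, 0 to 3 of the 10 members passed in each comparison, to be read beside the shares of all genes that follow. In shHOXB13 cells no member passed with shp300 (3.50% of all genes higher, 3.44% lower) or with shCBP (0.402% higher, 1.13% lower). With shp300/CBP, *NFKB1* and *BIRC3* were lower and *CXCL1*, on the few reads given above, was higher, against 10.4% of genes higher and 16.2% lower. *CXCL1* passed the filter on low values only through this arm and the shp300 arm, so its call is no support for a change. *NFKB2*, *RELB*, *NFKBIA*, *TNFAIP3* and *CCL20* showed no change past the threshold, with 95% intervals that reach from −0.86 (*RELB*) to 1.22 (*CCL20*) log2. In shCtrl cells no member passed with shp300 (1.05% higher, 2.19% lower), *NFKB1* and *BIRC3* fell with shCBP (4.14% higher, 8.09% lower), and *NFKB1* fell with shp300/CBP (8.90% higher, 9.40% lower). No member differed between shp300 and shCBP in shHOXB13 cells (1.86% and 0.718% of genes) or in the interaction of shHOXB13 and shp300/CBP (2.54% and 5.59%). Of these comparisons without a call, limma gave an unadjusted p under 0.05 for *BIRC3* with shCBP in shHOXB13 cells and for *NFKB2* and *BIRC3* with shp300 in shCtrl cells, all lower, and for no member in the other 3. With recovered reads and limma voom *BIRC3* passed for shp300 in shCtrl cells (−0.81 log2, adjusted p = 0.041), and no member passed in the others. These comparisons with 1 control group share its 2 libraries.

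With CCS1477 in shHOXB13 cells, *NFKBIA* and *CCL20* rose and *NFKB1*, *NFKB2* and *BIRC3* fell, 5 of 9 tested members, against 29.2% of genes higher and 10.4% lower. In shCtrl cells *NFKB2* and *CCL20* rose and *NFKB1* and *BIRC3* fell, 4 of 9, against 15.4% higher and 9.91% lower. In the interaction *NFKB2* alone passed, with 9.10% of genes above and 4.15% below. The median log2 difference of the 8 members was 0.22 in shHOXB13 and 0.23 in shCtrl cells, beside 0.20 and 0.06 over all genes. Among the genes called in either direction, median-of-ratios scaling moved the share called higher from 73.6% to 46.7% in shHOXB13 and from 60.9% to 46.4% in shCtrl cells. With it 4 members passed in each genotype, *NFKBIA* being the one lost in shHOXB13 cells. Of all 15907 genes, 2651 were then higher and 3020 lower in shHOXB13 cells, and 1866 and 2152 in shCtrl cells.

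The order of the members by FPKM, which is per length, restates the levels above as ranks. In shCtrl libraries of the knockdown series the order was *NFKBIA* (28.3 FPKM on average), *RELA* (27.1), *NFKB1* (8.58), *NFKB2* (8.39), *BIRC3* (1.75), *RELB* (1.16), *TNFAIP3* (0.554), *CCL20* (0.304), *ICAM1* and *CXCL1*. The libraries of *NFKBIA* and *RELA* overlapped there, as did those of *NFKB1* and *NFKB2*. In shHOXB13 libraries *NFKB2* (32.6 FPKM) came second, above *RELA* (20.2) without overlap and far above *NFKB1* (5.5), which overlapped *BIRC3* (4.97). Under DMSO *NFKB2* likewise moved from 9.39 FPKM, overlapping *NFKB1* (10.8), to 22.1 FPKM, apart from *NFKB1* (5.89) and overlapping *RELA* (26.6).

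Among members of at least 1 FPKM in both series, the patterns over the 12 group means, centred on each series, are given as Pearson correlations. *NFKB2* and *RELB* had an r of 0.97, *RELB* and *NFKBIA* 0.97, *NFKB2* and *CCL20* 0.91, *NFKB2* and *BIRC3* 0.86, and *BIRC3* and *CCL20* 0.69. *NFKB1* had negative coefficients with these, from −0.33 with *BIRC3* to −0.74 with *CCL20*. Of 10943 genes, the one most like both *NFKB2* and *RELB* was *JUNB* (r = 0.99 with each), which encodes an AP-1 subunit, followed by *CRIP2* for *NFKB2* (0.98) and *MAP3K11* for *RELB* (0.98). *NFKBIA* was most like *IRF1* (0.98), an interferon regulatory factor gene, and *RELB* (0.97), and *CCL20* was most like *TMPRSS6* (0.99) and *TYMP* (0.98). *BIRC3* was nearest to *GEMIN7* and *SLC9A3R2* (0.96 each), *NFKB1* to *LSM4* and *NOB1* (0.96 each), and *RELA* less closely to *ZNF32* and *PPP2R3A* (0.87 each). The 12 points share libraries' depth and the strong shHOXB13 contrast, so these coefficients only describe the groups. *CCL20* reached a mean of 1 FPKM only through the shHOXB13 groups. Its shCtrl groups stood at 0.0442–0.472 FPKM, on 1 to 14 reads each. *RELB* was also low in the shCtrl groups of the knockdown series, at 0.463–1.16 FPKM. Coefficients with *CCL20* thus rest in part on values near the limit of detection.

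The other genes of the pathway are given by list, and their counts are to be read beside the 8.45% higher and 30.8% lower over all genes. Of 6 further IkB family and REL genes, 1 was higher and none lower in shHOXB13 cells of the knockdown series, with a median log2 difference of 0.25 beside −0.33 over all genes. This was *NFKBIE*, the gene of IkBε, at 3.37 ± 0.63 FPKM in shCtrl and 7.79 ± 0.90 FPKM in shHOXB13 cells (1.19 log2, adjusted p = 0.003, limma). *NFKBID* (−0.63 log2), *NFKBIB* (0.29 log2) and *NFKBIZ* (0.22 log2) did not pass. Of 22 IKK complex and adaptor genes, 1 was higher and 6 lower, shares near those of all genes, with a median of −0.14. Among the lower ones were *TRAF3*, whose product restrains NIK (8.49 ± 0.59 to 5.06 ± 0.23 FPKM, −0.74 log2, adjusted p = 0.00094), *IRAK4* (−0.93 log2, adjusted p = 0.0016), *CHUK*, the gene of IKKα (−0.77 log2, adjusted p = 0.0066), and *TAB1* (−0.65 log2, adjusted p = 0.0095). Under DMSO, where 15.2% of all genes were higher and 42.4% lower, the counts differed. There 1 IkB family and REL gene was higher and 1 lower, with a median of 0.01. Of the 22 IKK genes 6 were higher and 6 lower, with a median of −0.03 beside −0.33 over all genes.

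Of 13 tested genes of activating ligands and receptors, 2 were higher and none lower in the knockdown series, with a median of −0.10. *TNFSF10*, which encodes the death ligand TRAIL, rose from 0.214 ± 0.03 to 8.40 ± 0.67 FPKM (4.76 log2, adjusted p = 3.1e-08, limma), and the receptor gene *TLR2* rose from 2 reads to 25 reads over its 2 libraries (adjusted p = 0.011). Of 27 tested other targets, 6 were higher and 6 lower, with a median of 0.10. *EGR1* rose from 0.280 to 1.90 FPKM (2.43 log2, adjusted p = 0.00019) and the chemokine gene *CCL5* from 4 to 26 reads (adjusted p = 0.0085). In the same list *TNFAIP8* fell from 10.5 ± 1.26 to 1.32 ± 0.09 FPKM (−2.90 log2, adjusted p = 1.9e-06) and *LCN2*, the gene of lipocalin 2, from 11.2 ± 3.12 to 1.95 ± 0.14 FPKM (−2.44 log2, adjusted p = 0.0021). *IL1R1* (−0.52 log2) and *IL1RAP* (−0.74 log2) did not pass. Under DMSO 2 of 11 tested ligand and receptor genes were higher and 3 lower, with a median of −0.17. Of 23 tested other targets 6 were higher and 8 lower there, with a median of 0.11.

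With shp300/CBP in shHOXB13 cells, where 10.4% of all genes were higher and 16.2% lower, 2 of the 6 IkB family and REL genes were higher, against a list median of 0.35. *NFKBIZ*, an atypical nuclear IkB gene, rose from 1.1 ± 0.04 to 3.42 ± 0.10 FPKM (1.56 log2, adjusted p = 0.0004, limma) and *NFKBID* from 1.31 ± 0.01 to 3.42 ± 1.35 FPKM (1.26 log2, adjusted p = 0.0075). In the IKK list none of 22 was higher and 4 were lower, namely *IRAK1* (61.9 ± 4.11 to 29.8 ± 1.70 FPKM, adjusted p = 0.00013), *TAB3* (adjusted p = 0.0018), *MAP3K14* (5.89 ± 0.21 to 3.49 ± 0.55 FPKM, adjusted p = 0.011) and *CHUK* (adjusted p = 0.046). *TNFSF10* fell to 2.45 ± 0.04 FPKM (−1.74 log2, adjusted p = 0.00019) and *IL1R1* from 3.52 to 2.22 FPKM (adjusted p = 0.035), while *IL1B* went from 0 to 12 reads (adjusted p = 0.031). Of 27 other targets 5 were higher and 2 lower, with *LIF* at 1.35 ± 0.49 and 3.77 ± 0.36 FPKM (adjusted p = 0.0011) and *CCL5* at 26 and 202 reads (adjusted p = 0.0017). *CXCL3* had 0 and 8 reads (adjusted p = 0.002), and *EGR1* stood at 1.90 and 4.41 FPKM (adjusted p = 0.03). The *IL1B* and *CXCL3* calls rest on few reads. A count of 0 allows a level of up to 3 reads, so no fold is given for them. Their reads in this comparison all came from the shHOXB13+shp300/CBP libraries, the pair that differed most in the series (chi-square per degree of freedom 28.8). The list medians were −0.07 for IKK, 0.20 for ligands and receptors and 0.42 for other targets, beside 0 over all genes.

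With CCS1477 in shHOXB13 cells 29.2% of all genes were higher and 10.4% lower. *MAP3K14* fell from 8.58 ± 0.51 to 3.68 ± 0.27 FPKM (n = 3, −1.20 log2, adjusted p = 6.3e-06, limma). In the same IKK list *TAB2* rose from 13.3 ± 0.68 to 22.9 ± 0.69 FPKM (adjusted p = 2.9e-05), *RIPK1* from 7.02 ± 0.98 to 10.9 ± 0.39 FPKM (adjusted p = 0.00089) and *TRAF3* from 6.61 to 8.55 FPKM (adjusted p = 0.0071), and in all 7 of 22 were higher and 2 lower, shares near those of all genes, with a median of 0.17 beside 0.20 over all genes. Of 11 ligand and receptor genes 6 were higher and 1 lower, with a median of 0.56. *IL1RAP* rose from 1.15 to 2.63 FPKM, *TLR3* from 1.26 to 2.85 FPKM and *TNFRSF11A* from 1.90 to 3.44 FPKM (adjusted p = 0.00045, 0.0016 and 0.00042), while *TNFSF10* fell from 2.94 ± 0.32 to 0.977 ± 0.19 FPKM (adjusted p = 0.0016). Of 23 other targets 7 were higher and 2 lower, with a median of 0.09. *CD83* rose from 1.09 to 2.95 FPKM, *SDC4* from 21.6 to 34.2 FPKM, *CXCL8*, the gene of interleukin 8, from 21 to 118 reads, and *GADD45B* from 3.37 to 5.89 FPKM, with adjusted p-values of 1.9e-05, 0.0011, 0.0022 and 0.0026. In the IkB family list *NFKBID* was higher (0.87 log2, adjusted p = 0.03) and *NFKBIB* lower (−0.36 log2, adjusted p = 0.046), with a median of 0.13.

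**Figure D5:**
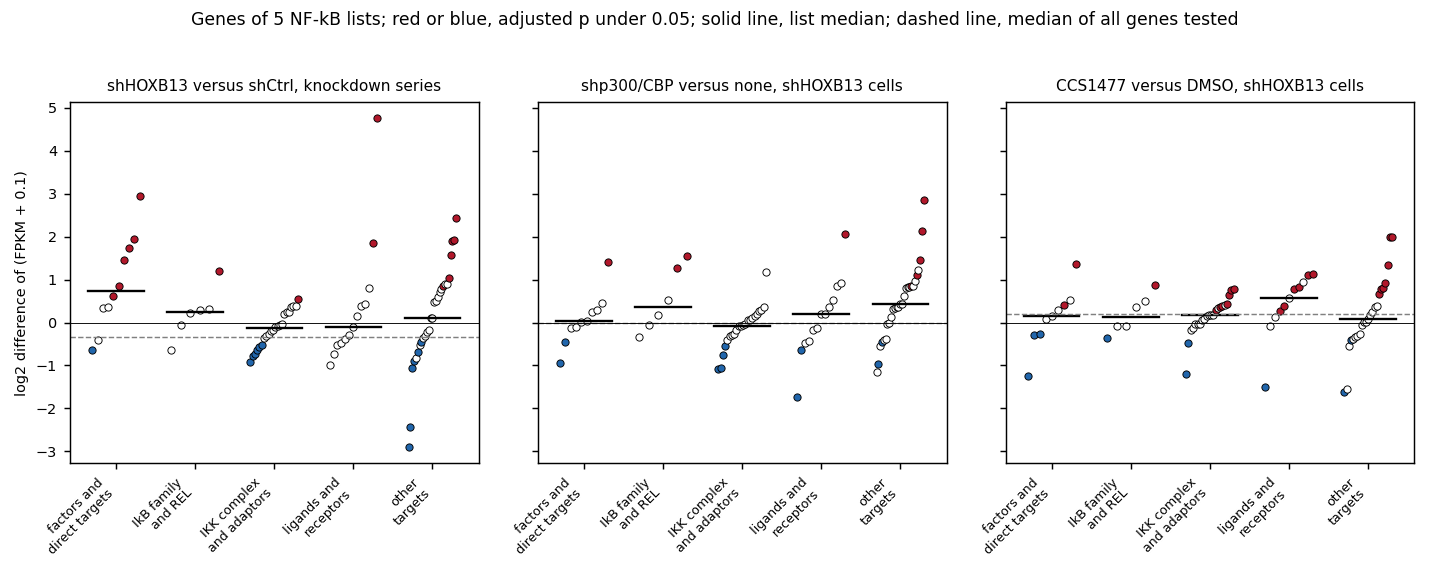
Log2 differences of FPKM + 0.1 (vertical axis) for the tested genes of 5 NF-kB lists in 3 comparisons, with 1 circle per gene, red or blue where the adjusted p was under 0.05. Solid lines mark list medians and dashed lines the median of all genes tested. In the left panel the median of all 10 factors and direct targets was 0.73, beside −0.33 over all genes.

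The 2 nearest tested genes on each side of the members made 40 neighbours in the knockdown series, of which 7 were higher and 10 were lower in shHOXB13 cells (8.45% and 30.8% of all genes), and 37 under DMSO, of which 8 were higher and 9 lower (15.2% and 42.4%). *PSD*, 93 bases from the end of *NFKB2*, had a difference of −0.34 log2 (adjusted p = 0.47, limma), and *CLASRP*, 853 bases beyond *RELB*, one of 0.05 log2 (adjusted p = 0.81) in the knockdown series and −0.20 log2 (adjusted p = 0.026) under DMSO. Reads were counted without regard to strand. GENCODE places genes on the opposite strand over parts of *RELA*, *TNFAIP3*, *BIRC3* and *ICAM1*, so reads from those cannot be told apart from the members' own.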

How the data were processed

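LNCaP cells were profiled by polyA RNA-seq in 28 libraries, described by the study as biological duplicates or triplicates. The authors aligned reads to GRCh38 (hg38) with STAR (version 2.6.0 in the submitters' processing notes), counted reads per gene without strand, and deposited FPKM per library, computed with a Perl script from gene length and all mapped reads. Only FPKM were used here. Of 26475 listed genes, 32 had no value. Reads were recovered from FPKM for 22422 genes, where 100.0% of 475332 values lay within 0.05 of a whole read. Intervals and the limit of 3 reads cover counting error only.

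The 10 members and the pathway lists were chosen with earlier results of these data known. Genes at 0.1 FPKM or more in at least 2 (knockdown) or 3 (CCS1477) libraries were tested, 17678 and 15907 genes. Values were log2(FPKM + 0.1), so fold changes of low genes are understated. Each series had 1 limma fit of all its groups (limma 3.58.1, R 4.3.3, trended prior) with Benjamini-Hochberg adjustment over all genes of each of 13 comparisons, a threshold of 0.05 and 2-sided p-values. The fits were tested on simulated data. All 10 members were named. From each pathway list up to 4 genes with the smallest p were named in 3 comparisons, and the 2 genes with the most similar pattern were named for members of at least 1 FPKM. Alternatives were a pseudocount of 1, no filter, median-of-ratios scaling, a fit of the contrasted groups alone, a replicate block, a 1.5-fold threshold, recovered reads with limma voom and leaving out each library. Deviations of same-numbered libraries from their group means correlated at 0.50, 0.30 and 0.25 between shCtrl DMSO and shCtrl CCS1477. Replicate 1 stood apart in both groups, and deviations from a group mean are tied to each other, so these are not separate values. The numbers may pair those libraries, which is read from the data, with 1 number outlying in both groups, and not from the labels. The reported fits used group means only and did not use this pairing. The replicate block covered all groups of a series and so is not a test of that pairing alone. Leaving out 2 outlying libraries together was added after seeing the data. Promoter windows are RefSeq's on GRCh38, and gene positions and exon counts (MANE transcripts) are from GENCODE 44.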

Additional observations from a re-analysis of the deposited data

Results flagged for a closer look

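*NFKB2* is listed because its response to CCS1477 differed between the genotypes in a direct test of that difference. The interaction of shHOXB13 and CCS1477 was −0.635 on the log2 scale (adjusted p = 0.0064, limma), with a rise of 0.34 in shCtrl cells and a fall of 0.30 in shHOXB13 cells, and all 3 treated libraries lay above the untreated ones in the first case and below them in the second. It passed under every alternative that was run for it. Groups of 2 or 3 libraries are too small for a test of single outlying libraries.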

How the results depend on the processing

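No call turned direction, while 69 differences that passed on neither side changed sign, among them *RELA* with other scaling, as given above. Over all alternatives, single members kept their side of the threshold in 1514 cases, lost it in 53 and gained it in 12, and counts of members stayed within 1.5 times in 145 cases and moved in 19. In a fit of the contrasted groups alone, no member passed for shp300/CBP in shHOXB13 cells (0 instead of 3) or for shCBP in shCtrl cells (0 instead of 2), 2 instead of 1 passed for shp300/CBP in shCtrl cells and 2 instead of 4 for CCS1477 in shCtrl cells. With 2 libraries a group that fit called no gene at all for shp300/CBP in shHOXB13 cells or for shCBP in shCtrl cells. A 1.5-fold threshold left 2 of 5 members for CCS1477 in shHOXB13 cells and 2 of 4 in shCtrl cells, recovered reads with voom gave 1 instead of 0 for shp300 in shCtrl cells (*BIRC3*, adjusted p = 0.041), and a pseudocount of 1 gave 2 instead of 1 for the interaction with CCS1477 (*BIRC3* added, adjusted p = 0.026). Leaving out 1 library at a time, the members that passed numbered 5 to 6 for shHOXB13 in the knockdown series, 5 to 6 under DMSO, 0 to 2 for shp300/CBP in shHOXB13 cells, 1 to 2 for shCBP in shCtrl cells, 0 to 1 for the knockdown interaction, 2 to 4 for CCS1477 in shHOXB13 cells, 3 to 5 in shCtrl cells and 1 to 2 for the interaction with CCS1477. The cause of these changes was not tested. Outside CCS1477 in shCtrl cells the libraries share only a number: same-numbered deviations correlated from −0.12 to 0.16 in the knockdown series and from −0.11 to 0.081 among the other pairs of groups of the CCS1477 series. Over all libraries of each series, those of shCtrl with DMSO and CCS1477 included, 8 of 16 and 7 of 12 were closest to their own number. With 2 libraries a group the deviations mirror each other, so the 16 are not separate cases. A replicate block added *RELA* for CCS1477 in shCtrl cells (0.25 log2, adjusted p = 0.011), for 5 members instead of 4, and changed no other member's call. Among the genes called in either direction, other scaling moved the share called higher from 33.8% to 51.1% for shCBP in shCtrl cells. For the interaction with CCS1477 that share went from 68.7% to 42.7%. In shHOXB13 cells it went from 26.2% to 41.3% for shCBP and from 72.1% to 54.6% for shp300 against shCBP. Depth limits *ICAM1*, *CXCL1* and, in shCtrl cells, *CCL20*.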

Other observations

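*MAP3K14*, whose product NIK drives the processing of p100, was lower with CCS1477 also in shCtrl cells, at 5.69 ± 0.63 FPKM with DMSO and 2.42 ± 0.10 FPKM with CCS1477 (SD, n = 3), a fold of 2.29 (adjusted p = 1.8e-05, limma).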
